A study of Mus musculus with 34 samples.

Results

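Immediate early genes are transcribed within minutes of a stimulus, from factors already present in the cell, and their mRNAs are short-lived. Many of these mRNAs carry AU-rich elements in the 3′ untranslated region (UTR), to which decay factors such as tristetraprolin bind. In liver this class is known for its response to partial hepatectomy, feeding, cytokines and tissue handling. The 10 genes described here were chosen by name as members of the class: Fos, Fosb, Jun, Junb, Jund, Egr1, Ier2, Atf3, Klf6 and Dusp1. All 10 have a row in the deposited table of 51368 mouse genes. Fos and Fosb are Fos-family leucine zipper proteins, which bind DNA as partners of the Jun-family proteins Jun, Junb and Jund in the AP-1 factor. Atf3 is a stress-induced leucine zipper factor. Egr1 and Klf6 are zinc finger transcription factors. Ier2 is a nuclear protein of the early growth response, and Dusp1 is a phosphatase that switches off MAP kinases.

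The study asked how ribosomal RNA (rRNA) removal, the temperature ramp rate of the PCR cycler and fragment length alter RNA-seq. All 33 liver libraries came from RNA of a single wild-type C57BL/6J mouse, aged 12 weeks, killed with carbon dioxide, whose tissue was snap-frozen, and 1 further library came from heart. The labels conflict on its sex, which one entry gives as female and another as male, and the Y-linked gene Ddx3y had 48 to 2661 counts per library against 0 to 10 for Xist. For each of 3 methods, 9 libraries were made from 200 ng of RNA, 1 for every combination of slow, medium or fast ramp with short, medium or long fragments. PolyA selection captures RNA by its tail (TruSeq Stranded mRNA kit, batch 1), rRNA pull-down removes rRNA with hybridised probes (TruSeq Stranded Total RNA kit, batch 2) and rRNA digestion degrades probe-bound rRNA with enzymes (Illumina Stranded Total RNA kit with Ribo-Zero Plus, its adapters replaced by those with molecular identifiers, batch 2). Libraries without any selection, from 20 ng of RNA and with the pull-down kit minus its depletion step, were made 3 times in each batch with slow ramp and medium fragments, and the heart library was of the same kind in batch 1. The standard amplification was 13 PCR cycles. All libraries are technical preparations, so a p-value here measures only the spread between preparations of 1 RNA sample. PolyA selection and batch cannot be told apart in a comparison of polyA with pull-down or digestion libraries, nor can a method and its kit, or selection and the larger RNA input.

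Depth was uneven between methods. Unselected liver libraries held 19.9 to 21.7 M counts, of which 85.6% to 86.4% were rRNA, mitochondrial genes or Lars2, polyA libraries 23.5 to 41.4 M and digestion libraries 20.0 to 30.2 M. Of the pull-down libraries, 8 held 23.4 to 39.2 M, and the library with slow ramp and long fragments held only 1.13 M. The 10 genes together received 442 to 585 counts per unselected liver library, 2646 to 7455 per polyA library and 5497 to 7835 per digestion library. The shallow pull-down library had 207, and in it 7 of the 10 genes were above every other pull-down library. By counting error alone, the exact Poisson 95% intervals of Junb, Jund and Egr1 lay clear of the other 8 and those of Fos, Jun, Ier2 and Dusp1 did not. The 5 hepatocyte markers examined summed to between 72342 and 103087 counts-per-million units (CPM, without rRNA) in liver and 374 in heart, and 5 cardiomyocyte markers to 57790 in heart and at most 1.40 in liver.

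The GC content and the 3′ ends of the transcripts set the members apart from one another. The longest coding transcripts of Jund, Junb, Jun and Ier2 have a single exon, as do those of 2.75% of the 13393 coding genes tested. The longest coding transcript of Jund is 67.1% G or C, above 99.8% of those genes, Junb reaches 62.6% and Ier2 60.9%. Klf6 is the exception at 42.4%, below the median of 50.1%, and the other members lie between 51.9% and 57.3%. The most GC-rich 100 bases of coding sequence within 1 exon are shown for Jund, Junb, Ier2 and Klf6. These 4 were picked because their fragment length results in polyA libraries, given below, follow the order of their GC content. That order does not hold for all members. Jun and Dusp1, not shown, have richer stretches than Junb and Ier2, at 78% and 80%. Their length differences were smaller (-0.30 and -0.24 against -0.58 and -0.45). Capitals mark unbroken runs of at least 6 G or C, and the stretches were read 5′ to 3′ on the coding strand of GRCm38.
Jund (chr8:70699626-70699725, plus strand): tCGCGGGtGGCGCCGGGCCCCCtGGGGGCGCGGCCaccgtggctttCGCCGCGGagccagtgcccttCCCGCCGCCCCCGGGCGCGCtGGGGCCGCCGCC
Junb (chr8:84977890-84977989, minus strand): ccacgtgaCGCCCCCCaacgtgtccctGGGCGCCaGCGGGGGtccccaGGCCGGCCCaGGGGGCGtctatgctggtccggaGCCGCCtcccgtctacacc
Ier2 (chr8:84662137-84662236, minus strand): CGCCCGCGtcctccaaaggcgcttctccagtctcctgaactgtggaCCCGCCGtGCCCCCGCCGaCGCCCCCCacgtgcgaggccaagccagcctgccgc
Klf6 (chr13:5865153-5865252, plus strand): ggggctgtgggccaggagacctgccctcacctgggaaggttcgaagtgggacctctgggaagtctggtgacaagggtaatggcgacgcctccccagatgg
The Jund stretch is 86% G or C and has the most capitals of the 4, the Junb stretch is 76% and the Ier2 stretch 74%. The Klf6 stretch is 64% and holds no run of that length.

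The AU-rich pentamer ATTTA, searched on the coding strand with overlapping matches counted, occurs in the 3′ UTR of 9 of the 10 genes, and in 69.2% of the 13269 coding genes with a 3′ UTR. Dusp1 has 5.80 copies per kb of 3′ UTR, Fos 4.91 and Junb 4.12, against a median of 1.29 per kb over those genes. Ier2 has none in its 755 bases. One site each is shown for Fos, Dusp1 and Klf6, with the pentamers in capitals, since they are the element the class is known for.
Fos: tgttttcaATTTATTTAttaa
Dusp1: ttacctttATTTAtttttgtg
Klf6: gaatttgaATTTActtttttt
The Fos site holds overlapping copies, and the Klf6 transcript has the longest 3′ UTR of the 10 genes, at 3111 bases with 7 copies. A match is a description of the letters and not of decay.

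Some of these loci overlap others, which bears on what a count means. Of the 31-base stretches of Jund, 50.1% also occur in its antisense gene Gm11175, which was not analysed here. The corresponding shares are 6.51% for Junb, with Prdx2 on the opposite strand, and 6.39% for Jun, with Junos. The library kits keep strand, per the labels, but whether the counting used it is not given in the sources used here. If it did not, reads of Jund and of Gm11175 cannot be told apart. The same holds for the shared stretches of Junb and Prdx2. Junos had between 0 and 26 counts per library, whereas Prdx2 had 2321 to 4628 in polyA and 1363 to 2023 in digestion libraries, against 286 to 1426 and 847 to 1336 for Junb.

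Levels are given as normalised CPM, that is CPM of the library total after scaling by the trimmed mean of M-values (TMM) over the 33 liver libraries, so that rRNA does not set the scale. Differences are log2 fold changes with their standard error (SE) from edgeR's quasi-likelihood test, with Benjamini-Hochberg adjusted p over all genes tested and a threshold of 0.05. The methods were first compared with the unselected libraries of the same batch. In polyA libraries 2 of the 10 genes passed the test, both lower, where 24.8% of 15422 genes were lower and 25.6% higher. In pull-down libraries 2 passed, again both lower, against 15.3% of all genes lower and 17.5% higher. In digestion libraries 3 passed, all higher, against 7.06% higher and 7.66% lower. The median difference of the 10 genes was 0.03 for polyA, against 0.04 over all genes. It was -0.01 against 0.06 for pull-down, and 0.36 against 0.04 for digestion.

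Between the methods the members differed more often, as did the genome at large. From pull-down to digestion 7 of the 10 genes were higher and 2 lower (all genes: 34.7% and 36%), with a median of 0.72 against -0.01 over all genes. From digestion to polyA 8 were lower and 1 higher (all genes: 42.2% and 38.4%), with a median of -0.58 against -0.03. From pull-down to polyA 3 were higher and 2 lower (all genes: 36.4% and 36.2%), with a median of 0.06 against 0.01. These comparisons share libraries. Leaving out the shallow pull-down library kept the calls of the comparisons with pull-down libraries and of those with unselected libraries; digestion against polyA was not refitted without it. It added Junb to those higher in digestion than in unselected libraries (log2 difference 0.83, adjusted p = 0.0337 by edgeR) and Jund to those higher in polyA than in pull-down libraries (0.33, adjusted p = 0.0147 by edgeR).

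**Figure D1:**
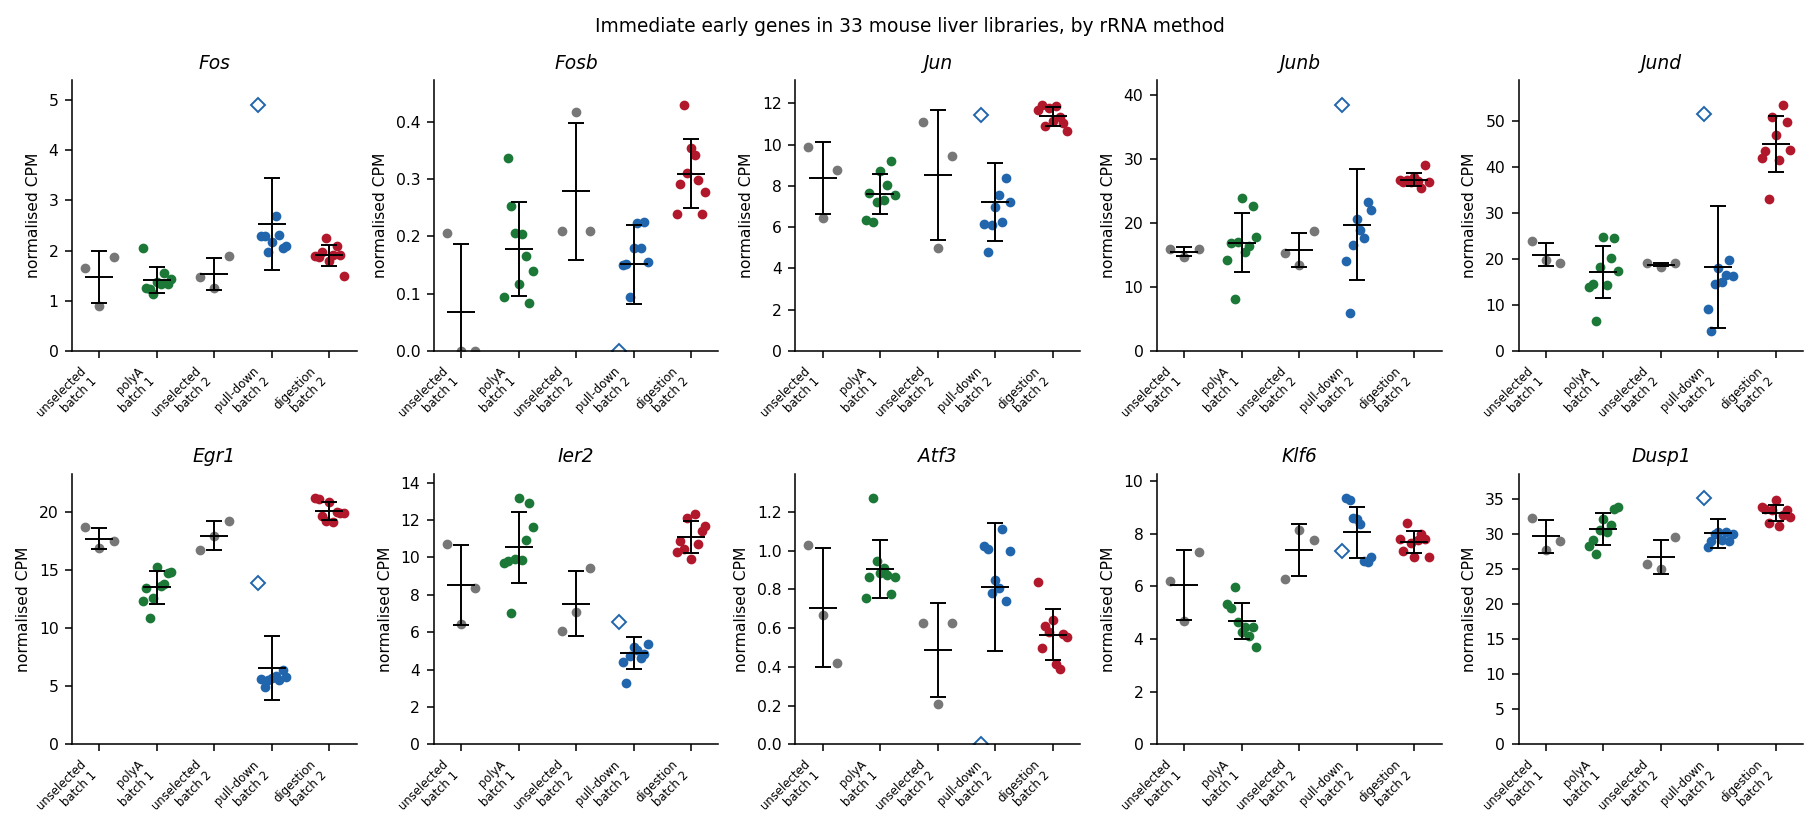
Each panel plots 1 gene in normalised CPM (y axis, from 0) for the 5 groups of liver libraries; points are libraries, the open diamond is the pull-down library of 1.13 M counts, and black bars are the mean ± SD. Egr1 in 8 of the 9 pull-down libraries lay below every other library, and Jund in digestion libraries lay above all libraries of the other groups except the diamond.

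Of the Jun family, Jund gained most in digestion libraries. This Jun protein, which is present in resting cells, stood at 19.2, 19.8 and 23.9 normalised CPM in unselected libraries of batch 1 and at 18.3, 19.0 and 19.1 in batch 2. The digestion libraries ranged from 33.1 to 53.6 (median 43.8), the polyA libraries from 6.57 to 24.7 (median 17.5) and the pull-down libraries from 4.36 to 51.5 (median 16.2). Digestion libraries thus lay above all unselected and polyA libraries, and of the pull-down libraries only the shallow one reached them. Jund was higher in digestion than in unselected libraries by 1.52 (SE 0.31, adjusted p = 0.000744 by edgeR) and than in pull-down libraries by 1.69 (SE 0.16, adjusted p = 3.93e-11 by edgeR). In polyA and pull-down libraries it differed from the unselected ones by -0.08 and -0.17, which did not pass the test.

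Junb, which represses or replaces Jun at AP-1 sites depending on the cell, had 14.7 to 15.9 normalised CPM in the 3 unselected libraries of batch 1 and 13.3, 15.3 and 18.6 in batch 2. In digestion libraries it ranged only from 25.4 to 29.0 (median 26.5), above all unselected and polyA libraries. PolyA libraries spread from 8.07 to 23.8 (median 16.8) and pull-down libraries from 5.92 to 38.4 (median 18.9). Its gain in digestion over unselected libraries was 0.84 (SE 0.30, adjusted p = 0.0581 by edgeR) and so missed the threshold, while DESeq2 gave 0.85 with adjusted p = 0.0370. Against pull-down libraries the difference was 0.67 (SE 0.14, adjusted p = 0.000119 by edgeR).

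Jun, the founding AP-1 subunit, ranged from 10.6 to 11.9 normalised CPM in digestion libraries, from 6.26 to 9.22 in polyA libraries and from 4.79 to 11.4 in pull-down libraries. Its unselected values were 6.45, 8.77 and 9.89 in batch 1 and 5.0, 9.43 and 11.1 in batch 2, from 24 to 53 counts each. The unselected values overlap those of digestion, and the difference of 0.43 (SE 0.19) did not pass the test, and single unselected libraries moved it to 0.67 without replicate 1 of batch 2 (adjusted p = 0.0497 by edgeR) and to 0.16 without replicate 2 (adjusted p = 0.705). In pull-down against unselected libraries the difference of Jun was -0.35 (SE 0.20), which did not pass by edgeR. DESeq2 gave -0.42 with adjusted p = 0.0421, and the alternatives ranged from -0.62 to -0.11. Jun was higher in digestion than in pull-down libraries by 0.78 (SE 0.08, adjusted p = 8.66e-10 by edgeR). Its gain of 0.19 in polyA over pull-down libraries (SE 0.08, adjusted p = 0.0464 by edgeR) was lost with DESeq2's size factors in edgeR (0.18, adjusted p = 0.0512), with rRNA, mitochondrial genes and Lars2 left out (0.18, adjusted p = 0.0551) and without the fast-ramp, long-fragment libraries (0.16, adjusted p = 0.0896).

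Fos-family values rest on few reads. Fos, the AP-1 subunit most used as a marker of recent stimulation, had 4 to 9 counts in each unselected library, and 1.13 to 2.05 normalised CPM in polyA, 1.96 to 4.90 in pull-down and 1.49 to 2.25 in digestion libraries. No difference from the unselected libraries passed the test, the largest being 0.66 in pull-down (SE 0.28, adjusted p = 0.0804 by edgeR). Among the methods, Fos was highest in pull-down libraries, above polyA by 0.71 (polyA minus pull-down -0.71, SE 0.10, adjusted p = 1.35e-07 by edgeR) and above digestion by 0.27 (digestion minus pull-down -0.27, SE 0.09, adjusted p = 0.0124 by edgeR). Fosb had 0 to 2 counts in unselected libraries, which is at or below the limit of 3 counts that a count of 0 allows, and at most 19 in any library. Its gain of 0.85 in digestion over pull-down libraries (SE 0.23, adjusted p = 0.00137 by edgeR) compares 8 to 19 counts with 0 to 10.

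Egr1, a zinc finger activator of growth and stress genes, gave the clearest split between methods. Unselected libraries held 16.9, 17.5 and 18.8 normalised CPM in batch 1 and 16.7, 17.9 and 19.3 in batch 2. PolyA libraries held 10.9 to 15.3 (median 13.7), digestion libraries 19.2 to 21.2 (median 19.9), and 8 pull-down libraries 4.91 to 6.39, with the shallow library at 13.9 from 17 counts. No pull-down library reached the unselected ones. Egr1 fell by 1.67 in pull-down against unselected libraries (log2 difference -1.67, SE 0.13, adjusted p = 6.88e-12 by edgeR) and by 0.41 in polyA (log2 difference -0.41, SE 0.12, adjusted p = 0.00505 by edgeR). In digestion libraries the difference of 0.14 (SE 0.12) did not pass. Digestion exceeded pull-down by 1.82 (SE 0.06, adjusted p = 2.06e-21 by edgeR), the largest difference between those methods among the 10 genes. None of its 31-base stretches occurs in another gene.

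Ier2 was lowest in pull-down libraries and passed the test against unselected libraries for both rRNA methods, in opposite directions. It stood at 3.29 to 6.54 normalised CPM in pull-down libraries, at 9.94 to 12.3 in digestion and at 7.0 to 13.2 in polyA libraries. The unselected values were 6.45, 8.35 and 10.7 in batch 1 and 6.07, 7.09 and 9.43 in batch 2, so pull-down and unselected libraries overlapped only through the shallow library. Ier2 fell in pull-down libraries (log2 difference -0.66, SE 0.20, adjusted p = 0.0109 by edgeR), which was lost without replicate 3 of the unselected batch 2 libraries (-0.46, adjusted p = 0.174). It was higher in digestion libraries by 0.60 (SE 0.19, adjusted p = 0.0253 by edgeR), which was lost without replicate 1 (0.47, adjusted p = 0.171) or replicate 2 (0.57, adjusted p = 0.122). The 0.33 in polyA libraries did not pass the test, but passed without replicate 1 of the unselected batch 1 libraries (0.54, adjusted p = 0.0454 by edgeR).

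Klf6, a zinc finger factor induced in injured liver, had its lowest values in polyA libraries. It held 3.71 to 5.98 normalised CPM in polyA libraries against 4.67, 6.18 and 7.31 in the unselected libraries of the same batch. Pull-down libraries held 6.93 to 9.34 and digestion libraries 7.11 to 8.42, against 6.28, 7.75 and 8.13 unselected. Klf6 was the member that differed least between pull-down and digestion (log2 difference -0.10, SE 0.06), and the polyA libraries lay below every pull-down and digestion library. It fell in polyA against unselected libraries (log2 difference -0.39, SE 0.15, adjusted p = 0.0401 by edgeR), a call lost without the low-count filter (-0.33, adjusted p = 0.135), without replicate 1 of the unselected batch 1 libraries (-0.37, adjusted p = 0.128) and without replicate 3 (-0.23, adjusted p = 0.396). Against digestion libraries the difference was -0.72 (SE 0.06, adjusted p = 1.22e-12 by edgeR).

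Dusp1 held its level across methods within 0.32 on the log2 scale of the unselected libraries. It stood at 27.1 to 33.9 normalised CPM in polyA, 28.2 to 35.1 in pull-down and 31.2 to 34.9 in digestion libraries, against 27.8, 29.0 and 32.4 unselected in batch 1 and 25.02, 25.7 and 29.5 in batch 2. Digestion libraries all lay above the unselected ones of their batch, by 0.32 (SE 0.07, adjusted p = 0.00263 by edgeR). Atf3 was low, at 1 to 5 counts in unselected libraries, 0.76 to 1.27 normalised CPM in polyA and 0.39 to 0.84 in digestion libraries. It was the gene higher in polyA than in digestion libraries (0.67, SE 0.13, adjusted p = 2.68e-05 by edgeR), and it was lower in digestion than in pull-down libraries (log2 difference -0.68, SE 0.14, adjusted p = 8.00e-05 by edgeR). No difference of Atf3 from the unselected libraries passed the test.

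**Figure D2:**
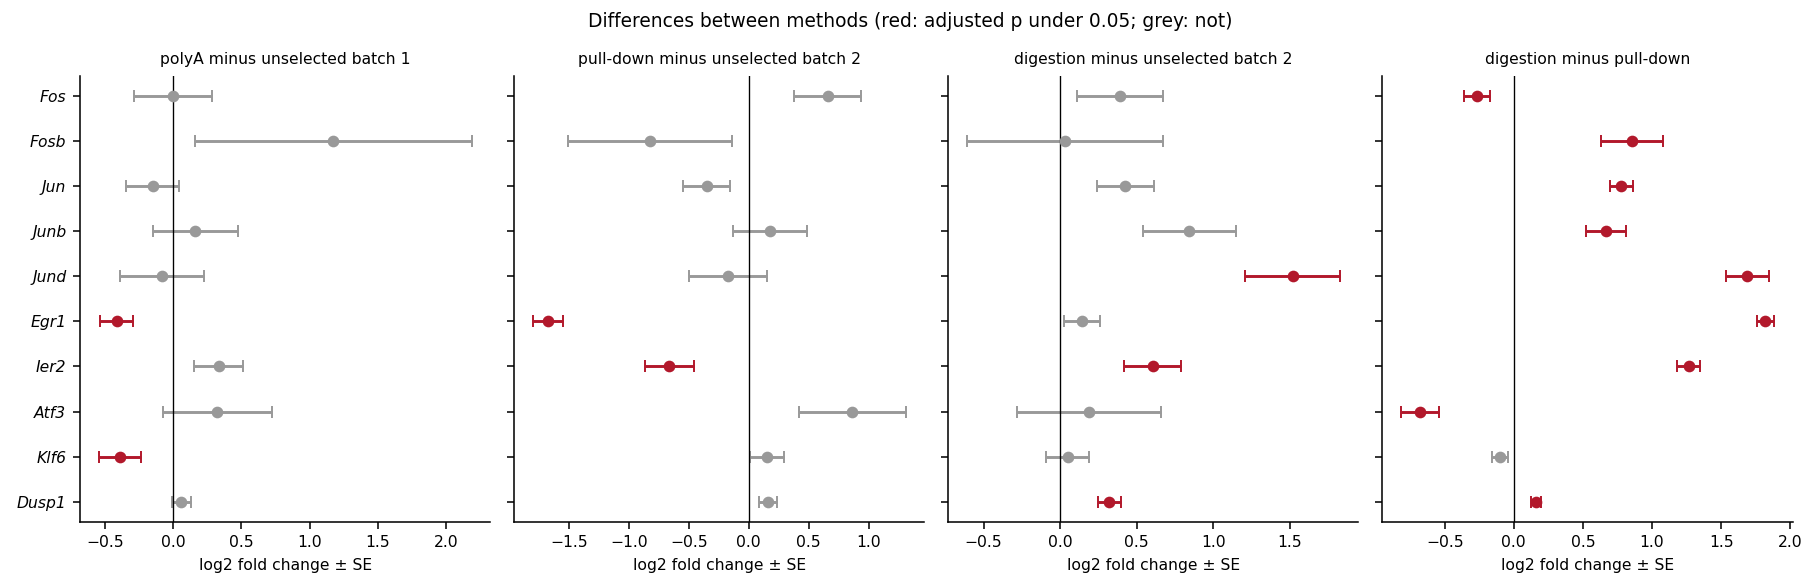
Points are log2 fold changes ± SE (x axis) of the 10 genes in 4 comparisons between methods, red where the adjusted p is under 0.05. Egr1 sits at -1.67 in pull-down against unselected libraries and at 0.14 in digestion against unselected libraries, and the widest bars belong to Fosb and Atf3, which had 0 to 5 counts in unselected libraries.

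The unselected libraries of both batches gave few called differences, but coding genes shifted with GC content. The median log2 difference of batch 2 over batch 1 was 0.08 under 45% GC and -0.15 at 60% or more. Spearman's rho of GC content and the difference was -0.31 across 13393 coding genes, which are not independent replicates. By edgeR, 0 of the 10 genes differed between batch 2 and batch 1, with 0 at an unadjusted p under 0.05 and 0 by DESeq2, and 0% of all genes were called (18 genes by DESeq2). The members' differences that rest on at least 21 counts per library ranged from -0.18 for Ier2 to 0.28 for Klf6. Markers of other cell types moved with the method. The 5 red blood cell markers examined are globin genes and Alas2, and their sum does not show which of them moved. They summed to between 127 and 136 CPM (without rRNA) in digestion libraries. The unselected libraries of the same batch had 472 to 490 and pull-down libraries 581 to 769. For 4 Kupffer cell markers the sums were 110 to 125, 145 to 151 and 185 to 259 in the same order of groups. In polyA libraries Kupffer markers summed to 99.3 to 106 against 145 to 154 in the unselected libraries of that batch, the 3 sinusoidal endothelium markers to 63.1 to 71.8 against 164 to 177 and the 3 stellate cell markers to 86.9 to 107 against 226 to 232. The 3 cholangiocyte markers summed to 5.73 to 8.28 in polyA against 12.3 to 14.5 unselected, to at most 4.47 in pull-down against 9.48 to 11.2, and to 13.9 to 18.6 in digestion against the same. This sum was thus lower in pull-down and higher in digestion libraries, the opposite of the red blood cell and Kupffer cell sums. All liver libraries came from RNA of 1 mouse, so these sums compare preparations and not cell numbers. Whether what moved these sums also moved the 10 genes was not tested.

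Compared between genes per kilobase of the longest coding transcript, the order of the 10 genes was similar in all liver groups. In digestion libraries Jund stood highest at 27.01 ± 3.69 normalised CPM per kb (SD, n = 9), followed by Dusp1 at 16.6 ± 0.581 and Junb at 14.8 ± 0.542. Ier2 had 7.29 ± 0.554, Egr1 4.49 ± 0.173, Jun 3.56 ± 0.146 and Klf6 1.82 ± 0.100. Fos at 0.906 ± 0.0987, Atf3 at 0.286 ± 0.0669 and Fosb at 0.0818 ± 0.0159 were the lowest. The same order held in unselected and polyA libraries except at the top, where Dusp1 came before Jund. In unselected libraries of batch 1 these neighbours overlapped within their spread (14.9 ± 1.18 and 12.6 ± 1.53, SD, n = 3). In pull-down libraries Egr1, at 1.47 ± 0.618 (SD, n = 9), dropped behind Jun and Klf6. Where the length was taken over all exons of the gene, Jund led in all liver groups, with the shallow library included in pull-down. Dusp1 then dropped to 8.98 normalised CPM per kb in the unselected libraries of batch 1.

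Replicate spread differed by method as well. Without the shallow library, the coefficient of variation over libraries that differ in ramp and length was 31.7% for Junb and 35.5% for Jund in pull-down libraries, and 27.2% and 33.2% in polyA libraries. In digestion libraries it was 3.66% for Junb, 4.10% for Jun and 3.85% for Egr1, close to the 3.01%, 4.62% and 3.47% that counting alone gives, while Jund kept 13.7%. The part of fragment length in this spread is given by the next comparison.

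Fragment length altered most members in polyA libraries. Long minus short fragments gave 6 lower and 1 higher of the 10 genes (all genes: 27.7% lower and 27.4% higher), with a median of -0.25 against -0.01 over all genes. Jund fell most, from 20.3, 24.7 and 17.5 normalised CPM with short fragments to 13.96, 14.6 and 6.57 with long ones in the slow, medium and fast ramp. Every long-fragment value lay below every short-fragment value, and the log2 difference was -0.88 (SE 0.12, adjusted p = 7.33e-05 by edgeR). Junb went from 16.4, 22.6 and 17.7 to 14.1, 16.8 and 8.07 (log2 difference -0.58, SE 0.12, adjusted p = 0.00176 by edgeR), with each ramp lower but the groups overlapping. Ier2 (-0.45), Jun (-0.30), Egr1 (-0.26) and Dusp1 (-0.24) also fell, with adjusted p from 0.000370 to 0.00569 by edgeR. Klf6, the GC-poor gene, rose instead, from 4.12, 4.44 and 3.71 to 5.32, 5.17 and 5.98 without overlap (0.42, SE 0.09, adjusted p = 0.00257 by edgeR). The differences of Fos (0.03), Atf3 (0.19) and Fosb (0.81) did not pass. Egr1 lost its call without the fast-ramp pair (-0.17, adjusted p = 0.0677).

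In pull-down libraries the shallow library, which is one of the 3 with long fragments, decided the result. With it, 1 of the 9 members that passed the filter on low counts was called, Klf6 (0.40, SE 0.09, adjusted p = 0.0336 by edgeR; all genes 4.42% higher and 1.66% lower), and Fosb did not pass the filter. That call in turn was lost without the low-count filter (0.39, adjusted p = 0.0512), without the medium-ramp pair (0.33, adjusted p = 0.959) and without the fast-ramp pair (0.40, adjusted p = 0.575), where the genes called in all were 36 and 75, against 4627 without the slow-ramp pair. Without the shallow library 5 members were called, while the count over all genes went from 877 to 5398. Jund then fell by 1.44 (log2 difference -1.44, adjusted p = 9.55e-05 by edgeR), Junb by 1.19 (-1.19, adjusted p = 0.00140), Jun by 0.49 (-0.49, adjusted p = 0.00791) and Ier2 by 0.39 (-0.39, adjusted p = 0.0416), and Klf6 rose by 0.42 (adjusted p = 0.00246). Jund had 16.4, 19.8 and 16.2 normalised CPM with short fragments against 9.10 and 4.36 with long ones in the medium and fast ramp. The shallow library had 51.5, with an exact Poisson 95% interval of 39.5 to 65.8 from 63 counts, which covers counting error only.

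Digestion libraries showed little of this. Long minus short fragments gave 1 member called, Jund, which went from 53.6, 49.9 and 43.8 to 42.0, 43.5 and 33.1 normalised CPM (log2 difference -0.32, SE 0.04, adjusted p = 1.76e-05 by edgeR; all genes 9.15% lower and 8.8% higher). Its values with short fragments all lay above those with long ones. Junb stood at 25.4, 29.0 and 26.3 with short and 26.7, 26.4 and 26.7 with long fragments, a difference of -0.02 (SE 0.04). The differences of Jun (0.06), Egr1 (0.05) and Klf6 (0.04) did not pass the test.

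Over all 27 selected libraries, Klf6 was higher with long fragments (0.29, SE 0.06, adjusted p = 0.000330 by edgeR) and Jund (-0.64, adjusted p = 0.00329), Junb (-0.41, adjusted p = 0.0313) and Ier2 (-0.26, adjusted p = 0.00852) were lower, against 24.8% of 15230 genes higher and 19.9% lower. DESeq2 did not call Jund (-0.41, adjusted p = 0.194) or Junb (-0.29, adjusted p = 0.223) and called Dusp1 (-0.08, adjusted p = 0.0423). Without the shallow library edgeR added Jun (-0.18, adjusted p = 0.0298) and Dusp1 (-0.10, adjusted p = 0.0224). Whether the length effect itself differed between methods was tested as an interaction over the 27 libraries, which called 25.2% of all genes and 2 members, Dusp1 (adjusted p = 0.0237 by edgeR) and Klf6 (adjusted p = 0.0258 by edgeR). Junb (adjusted p = 0.0913) and Jund (adjusted p = 0.222) did not pass with the shallow library included. Without it 6 members passed, with 5482 genes called in all against 3892, and with DESeq2's size factors or with DESeq2 1 did.

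**Figure D3:**
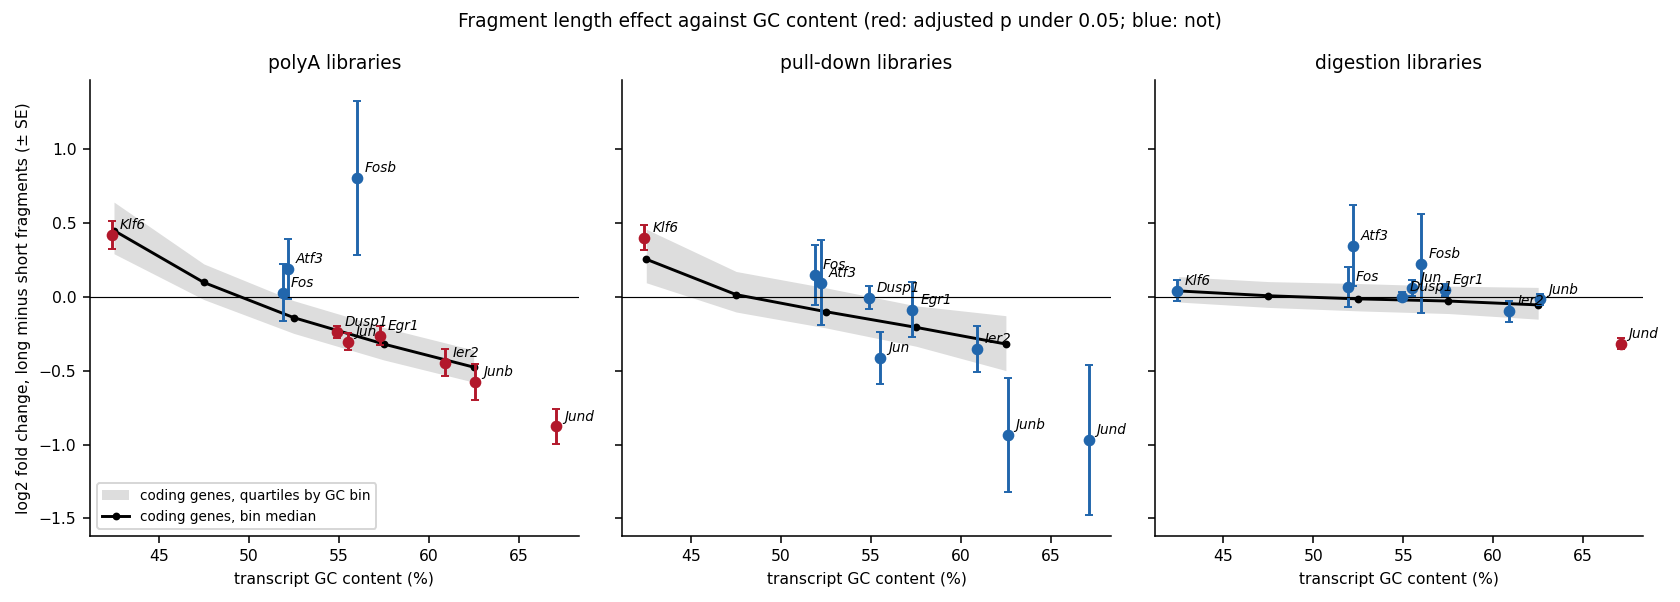
The log2 fold change of long over short fragments ± SE (y axis) is plotted against the GC content of the longest coding transcript in percent (x axis) for the members that could be tested; red points have an adjusted p under 0.05, the black line joins the medians of all coding genes in 5 GC bins, of which the lowest and highest are open-ended, and the grey band spans their quartiles. In polyA libraries the red points run from Klf6 at 0.42 to Jund at -0.88, and in digestion libraries the red point is Jund, at -0.32.

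GC content and the length difference were set side by side for the members and for coding genes at large. In polyA libraries the median log2 difference of long over short fragments was 0.45 for the 3091 coding genes under 45% GC and -0.48 for the 582 with 60% or more, and Spearman's rho between GC content and the difference was -0.82 across 13100 coding genes, which are not independent replicates. Across the 10 members rho was -0.78. In digestion libraries the bin medians were 0.04 and -0.05 and rho was -0.19 across 13321 coding genes and -0.62 across the 10 members. Jund stood below its bin in both methods, and in pull-down libraries, where the 60% bin had a median of -0.32. There rho was -0.60 across 12949 coding genes and -0.95 across the 9 members tested. All these points share the same libraries and the same GC measure.

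Ramp rate was tested in the same way. Over the 27 selected libraries edgeR called 0 of 10 for fast minus slow ramp, with 1 at an unadjusted p under 0.05, Jund (log2 difference -0.42, SE 0.16), and 0 by DESeq2, while 0.0328% of all genes were called. The same comparison within each method was added after the data had been seen. In digestion libraries it called Jund alone of the 10 (all genes: 0.303% lower and 0.0855% higher), which went from 53.6, 50.9 and 42.0 normalised CPM in the slow ramp to 43.8, 41.6 and 33.1 in the fast ramp for short, medium and long fragments. The fast ramp was lower at each length, by -0.31 in all (SE 0.04, adjusted p = 0.000715 by edgeR), and the ranges overlapped across lengths. Junb differed by 0.02 in the same libraries (SE 0.04).

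In polyA libraries 0 of 10 were called by edgeR and 0 by DESeq2, with 1 at an unadjusted p under 0.05, again Jund (log2 difference -0.46, SE 0.11, adjusted p = 0.111; all genes 0.287%). That difference passed without the low-count filter (-0.45, adjusted p = 1.16e-05) and without the long-fragment pair (-0.28, adjusted p = 0.0314). The count over all genes, 42 as reported, was 460 without the filter, 871 without the long-fragment pair and 3 without the medium-fragment pair. In pull-down libraries 0 of 9 were called by edgeR and 0 by DESeq2, with 0 at an unadjusted p under 0.05 (all genes 0%). Over all genes DESeq2 called 14 there, and edgeR without the filter 21. The interactions of method with ramp and of ramp with length, also added after the data had been seen, called 0% of 15442 genes by edgeR. In each, 0 members had an unadjusted p under 0.05 and DESeq2 called 0 members.

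In polyA and pull-down libraries the lowest values of Jund, Junb, Ier2, Jun and Egr1 came from the fast ramp with long fragments. Junb had 14.1, 16.8 and 8.07 normalised CPM in the slow, medium and fast ramp of polyA libraries with long fragments, and 14.1 and 5.92 in the medium and fast ramp of pull-down libraries. In digestion libraries the corresponding 3 values of Junb were 26.7, 26.4 and 26.7, while Jund had its lowest value there too (42.0, 43.5 and 33.1). Ier2 showed the same with 9.67, 9.83 and 7.0 in polyA libraries and 4.43 and 3.29 in pull-down libraries. Each combination is 1 library, so this has no test of its own. Leaving out the 3 fast-ramp libraries with long fragments reduced the members called for length over all methods from 4 to 2, with Junb (-0.23, adjusted p = 0.137) and Ier2 (-0.17, adjusted p = 0.0847) lost.

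**Figure D4:**
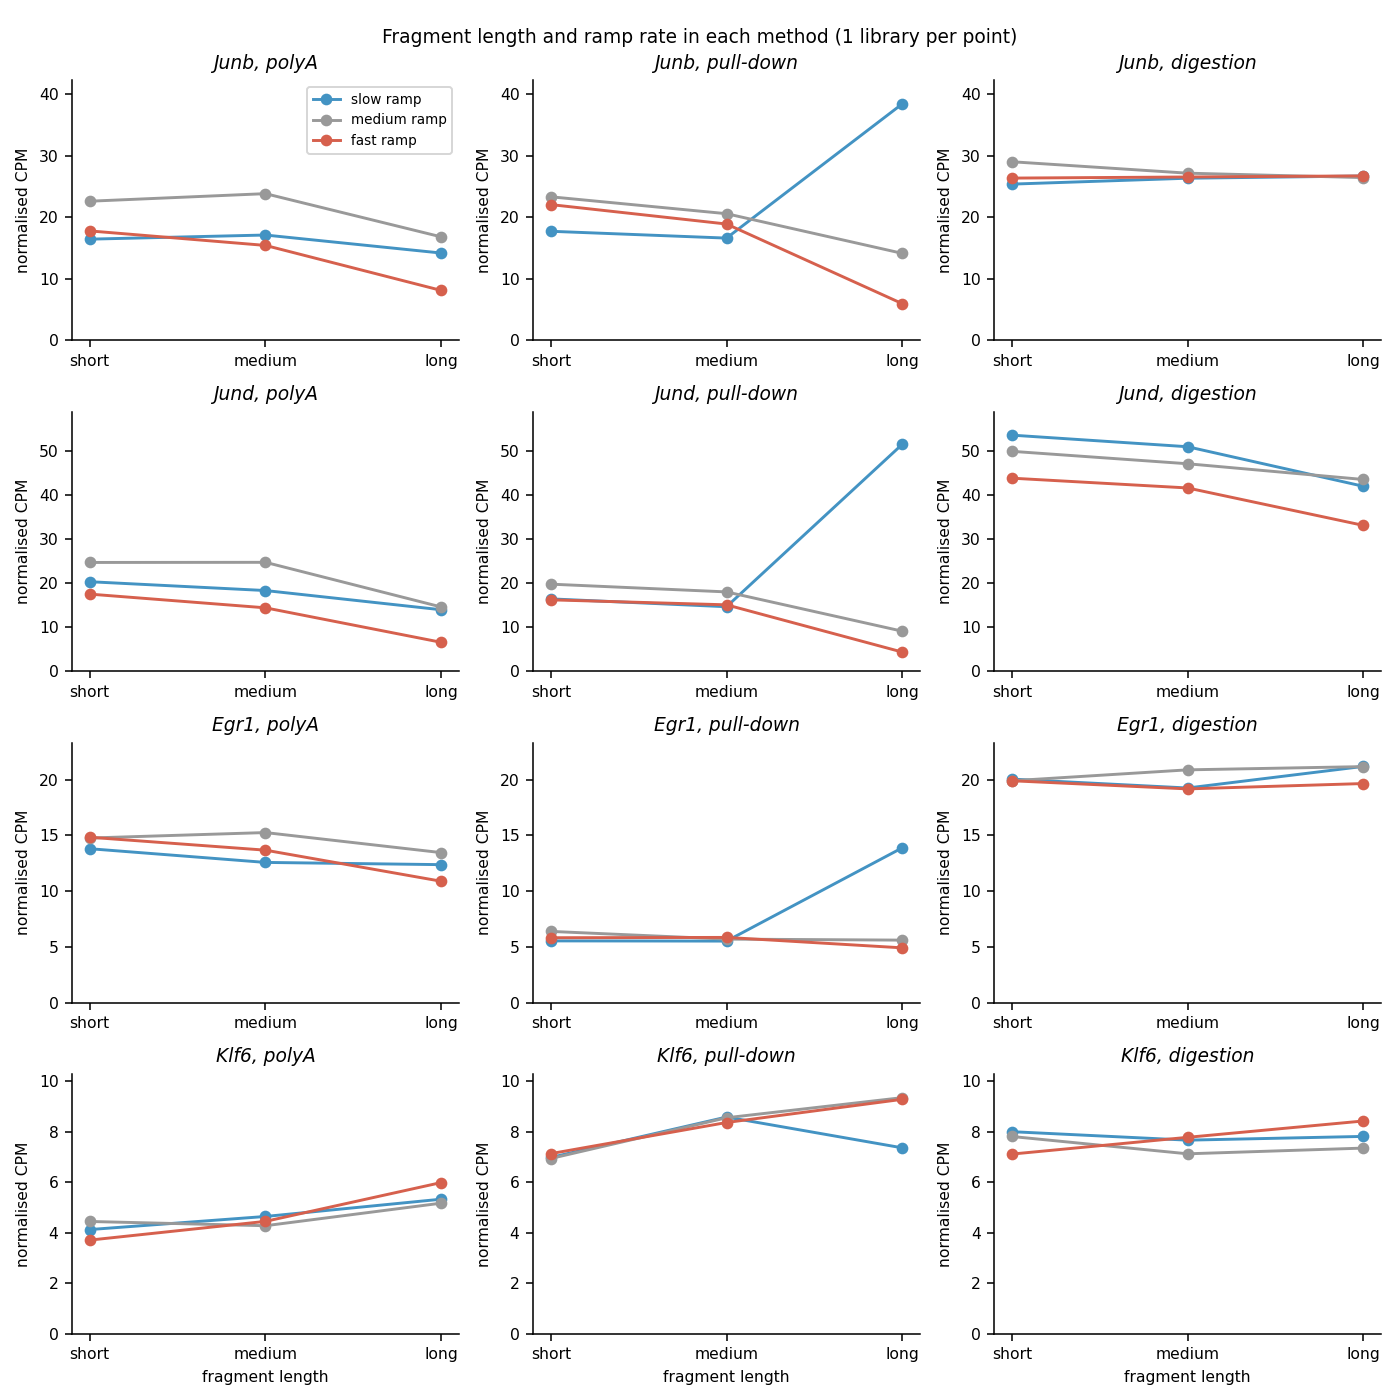
Normalised CPM (y axis, from 0) of Junb, Jund, Egr1 and Klf6 is plotted against fragment length (x axis) for the slow, medium and fast ramp in polyA, pull-down and digestion libraries, with 1 library per point. The blue point at long fragments in pull-down is the library of 1.13 M counts (Jund 51.5), and the fast ramp with long fragments gives the lowest Junb in polyA (8.07) and pull-down (5.92) but not in digestion (26.7).

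The heart library was compared with the 3 unselected liver libraries of its batch, with TMM scaling over these 4. With 1 heart library there is no test. A gene is counted where the level differed at least 2-fold, and intervals are exact Poisson 95% intervals on the heart count alone. Of the 9 members with at least 10 counts in heart or on average in liver, 4 were at least 2-fold higher in heart (all genes: 27.4% of 12863) and 1 at least 2-fold lower (all genes: 22.6%). Fos and Atf3 passed this filter through heart alone, which fixed their direction, so the count of higher genes supports nothing by itself. Klf6 had 227 counts in heart against 30, 21 and 35 in liver, 5.12-fold higher (4.47 to 5.83). Jun had 233 against 48, 29 and 42, or 3.80-fold higher (3.33 to 4.32). Both lay above all 3 liver libraries. Atf3 had 19 against 5, 3 and 2 (3.68-fold, 2.22 to 5.75) and Fos 25 against 8, 4 and 9 (2.32-fold, 1.5 to 3.42), and Fos dropped under 2-fold without liver replicate 2 (log2 ratio 0.95).

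Junb was the member at least 2-fold lower in heart, with 51 counts against 77, 66 and 76. This is 0.450 times the liver level (0.335 to 0.592), so that Jun and Junb differed in opposite directions. Ier2 had 37 against 52, 29 and 40 (0.594 times, 0.418 to 0.819), with its interval reaching the lowest liver library. For Jund, the 138 counts against 116, 89 and 92 gave 0.898 times (0.755 to 1.06), with the interval reaching into the liver range. Egr1, with 134 against 91, 76 and 84, lay within it at 1.03 times (0.864 to 1.22). Dusp1 had 296 against 157, 125 and 139, or 1.36-fold (1.21 to 1.52), above all 3 liver libraries. Fosb had 3 counts in heart and at most 1 in liver, too few for a fold. In bulk tissue, fewer cells of a type and less RNA per cell cannot be told apart. The 4 cardiac fibroblast markers examined summed to 392 CPM (without rRNA) in heart against 47.2 to 50.7 in these liver libraries, 5 red blood cell markers to 1074 against 528 to 546, 4 Kupffer cell markers to 5.25 against 145 to 154 and 3 sinusoidal endothelium markers to 16.05 against 164 to 177. Of the red blood cell markers the 4 globin genes were higher in heart, while Alas2 had 52 counts against 356, 337 and 359. The part of these cells in the members' differences was not tested. Of the cardiomyocyte markers, Myh6 and Myl2 were at 0 in these liver libraries.

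**Figure D5:**
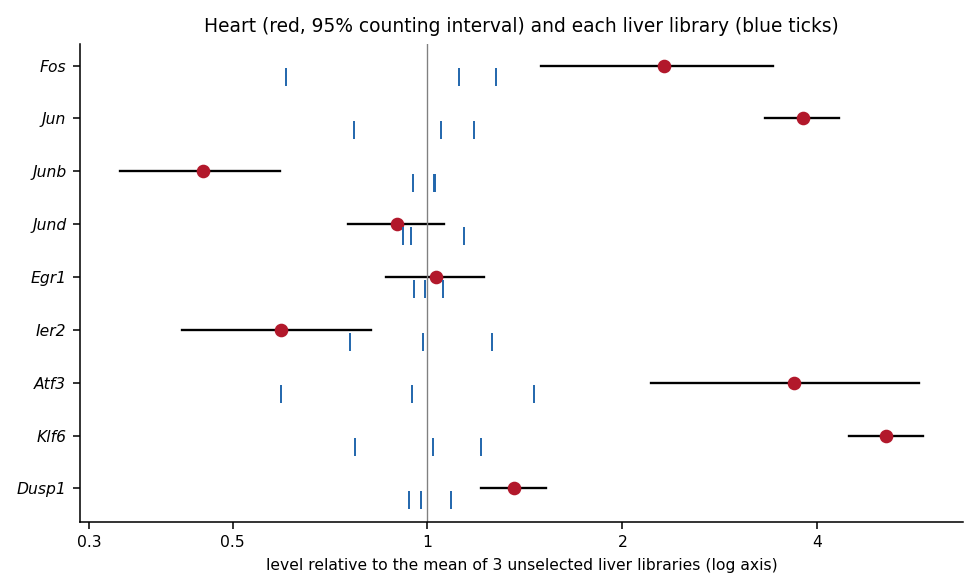
Red points give each member's level in the heart library relative to the mean of 3 unselected liver libraries (x axis, log scale) with exact Poisson 95% intervals, and blue ticks give each liver library on the same scale; Fosb is not drawn. Klf6, Jun, Atf3 and Fos lie above all liver ticks and Junb below them, while Egr1 falls among them and the interval of Jund reaches them.

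The genes most like each member over the 33 liver libraries, by Pearson's r of log2(normalised CPM + 0.5) among genes with a mean of at least 1, held no other member among the closest 2. They share the libraries and depth of the member, and r is given as a description. Jund was closest to Zbtb7a (r = 0.958) and Zfp574 (0.957), and Junb to Irf2bp1 (0.918) and Zfp574 (0.910). The transcripts of these neighbours are 57.4% to 63.6% G or C. Klf6 was closest to Ppp4r3b (0.949) and Trove2 (0.935), at 40.1% and 37.8% G or C. Jun was closest to Dyrk1b (0.915) and Zbtb7a (0.905), Ier2 to Ssbp3 (0.946, 54.2% G or C) and Rab11b (0.942, 48.1%), and Atf3 to Eef1akmt4 (0.892) and Vps33b (0.860). Fos (Fermt3 0.826, Armcx2 0.806), Dusp1 (Tmem250-ps 0.850, Nr2f6 0.838) and Fosb (Caap1 0.746, Aqp4 0.721) had the least similar neighbours.

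A second list held 42 other early response genes, of which 39 were tested between methods. In digestion against unselected libraries 12 of the 39 passed, all higher (all genes: 7.06% higher and 7.66% lower), led by Cebpb (1.63), an intronless leucine zipper factor, the RNA-decay factor Zfp36l2 (0.73) and the MAP kinase phosphatase Dusp6 (0.33). The list's median was 0.22 there, against 0.04 over all genes. In pull-down libraries 10 were lower and 2 higher (all genes: 15.3% and 17.5%), led by Zfp36l1 (-1.10), the clock gene Per1 (-1.04) and Dusp6 (0.42). In polyA libraries 9 were higher and 6 lower (all genes: 25.6% and 24.8%), led by the Fos-family gene Fosl2 (-0.82), Gadd45a (1.53) and Irf1 (0.38). With long against short fragments in polyA libraries 15 of 37 were lower and 3 higher (all genes: 27.7% and 27.4%), led by Pim3 (-0.50), Mcl1 (0.33) and Per1 (-0.43). In digestion libraries with a fast ramp 2 of 40 were lower (all genes: 0.303%), Cebpb (-0.88, SE 0.04, adjusted p = 2.55e-09 by edgeR) and Zfp36l2 (-0.21), beside the Jund difference given above.

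Of 25 upstream kinases and factors, all were tested. In polyA libraries 11 were lower than in unselected ones and 6 higher (all genes: 24.8% and 25.6%), led by the coactivators Crebbp (-2.34) and Ep300 (-1.21) and the serum response partner Elk4 (-1.58). The same 3 genes led in pull-down libraries, with 12 lower and 4 higher (all genes: 15.3% and 17.5%), at -1.02, -0.82 and -0.99. In digestion libraries 3 were higher and 1 lower (all genes: 7.06% and 7.66%), led by Map2k7 (0.57), Atf1 (0.47) and Rps6ka1 (0.44).

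The loci, in GRCm38 coordinates from the GENCODE M21 annotation, are as follows, with exons counted in the longest coding transcript. Fos spans chr12:85473890-85477273 on the plus strand and Fosb chr7:19302696-19310051 on the minus strand, each with 4 exons. Jun lies at chr4:95049034-95052222, Junb at chr8:84974484-84978718 and Ier2 at chr8:84661331-84662852, all on the minus strand, and Jund at chr8:70698949-70700616 on the plus strand. Atf3, with 4 exons, spans chr1:191170296-191218039 on the minus strand, Klf6 chr13:5861482-5870394 on the plus strand and Dusp1 chr17:26505590-26562128 on the minus strand. Egr1, with 2 exons, lies at chr18:34859823-34864984 on the plus strand.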

How the data were processed

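RNA sequencing counts of 34 mouse libraries were used. The deposited values are expected counts per gene, and the processing notes of the submitters name Salmon 1.9.0, UMI-tools 1.1.1, R 4.4.0 and the build GRCm38, per the submitters' processing notes and without roles. Bias correction, removal of UMI duplicates and strand handling are not given in the sources used here. The expected counts as deposited by the authors were rounded to whole numbers. Symbols, GC content and coordinates came from GENCODE M21, which matched 50896 of 51368 identifiers. The 10 genes and all gene lists were chosen with earlier results of these data known. All 10 are named throughout; other lists are given by counts and the 3 genes with the lowest adjusted p.

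Genes passed edgeR's filterByExpr. Differences came from edgeR 4.0.16 (R 4.3.3), quasi-likelihood F-tests with TMM scaling, on group, ramp and length over all 33 liver libraries for methods, over the 27 selected libraries for length, ramp and interactions, and within each method. The SE is the log2 difference divided by the square root of F. The alternatives were DESeq2 1.42.0, its size factors, no filter, rRNA left out and libraries left out. The fit was tested on simulated counts. Replicate numbers of the unselected libraries come from titles. Unselected libraries of a batch differed by more than sampling noise and were counted separately. The genes most like Egr1 are not reported here.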

Additional observations from a re-analysis of the deposited data

Results flagged for a closer look

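In 30 groups of 9 libraries (10 genes, 3 methods), 8 held 1 library far from the others by Dixon's criterion. Chance meets it in about 1 in 20 groups of like replicates, a rate that does not carry over to this count, since the libraries of a group differ in ramp and length and the 10 genes share them. In 5 of the 8 the library was the pull-down library with slow ramp and long fragments, of 1.13 M counts. There Fos stood at 4.90 normalised CPM from 6 counts, Jund at 51.5, Egr1 at 13.9 and Dusp1 at 35.1, all above the other 8 pull-down libraries, and Atf3 at 0, below them. Its Atf3 count of 0 allows up to 3 counts. In polyA libraries Fos was apart in the slow-ramp, long-fragment library (2.05) and Atf3 in the fast-ramp, long-fragment library (1.27). In digestion libraries Junb was apart in the medium-ramp, short-fragment library (29.0).

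The effect of fragment length differed between the methods, by the interaction test over the 27 selected libraries, for Klf6 (adjusted p = 0.0258 by edgeR) and Dusp1 (adjusted p = 0.0237 by edgeR). The same test called 25.2% of all genes. With DESeq2's size factors or with DESeq2 it called 1 member.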

How the results depend on the processing

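No called result changed sign, but differences that missed the threshold did in some settings, such as Jund between polyA and pull-down libraries (-0.03 to 0.33). Over 1162 recomputed values of single genes, 1117 kept their side of the threshold or their size, 17 lost the call, 21 gained it and 7 moved in the heart comparison beyond the liver spread. The number of members called moved by over 1.5 times as follows. Without the low-count filter it was 1 for polyA against unselected libraries (2 as reported), 0 for length in pull-down libraries (1 as reported) and 1 for ramp in polyA libraries (0 as reported). For the interaction of method with length (2 as reported) it was 1 with DESeq2's size factors, 1 with DESeq2, 1 without the fast-ramp, long-fragment libraries, a choice made after seeing the data, and 6 without the shallow library. For length over all methods it was 2 without those 3 libraries (4 as reported). Leaving out single libraries or pairs gave 1 to 2 for polyA against unselected, 1 to 3 for pull-down against unselected, 0 to 5 for length in pull-down and 0 to 1 for ramp in polyA libraries. The cause was not tested. The median of all genes moved by over 0.1 only without the filter, to 0.16, 0.20 and 0.15 for polyA, pull-down and digestion against unselected libraries. Over all genes, DESeq2 called 1339 for length in pull-down (877 as reported), 963 for length in digestion (2728 as reported) and 223 for ramp in polyA libraries (42 as reported). Without the filter, ramp called 460 in polyA and 248 in digestion libraries (59 as reported), where DESeq2 called 31. Digestion against unselected libraries called 1303 without replicate 2 of batch 2 (2270 as reported).

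Replicate numbers of the unselected libraries did not pair across batches (correlations of deviations 0.03, -0.11 and -0.17), and with the replicate block 0 members were called between batches, as without it, while the 6 unselected libraries alone gave 39 genes without the block and 82 with it (0 in the fit of all liver libraries, 18 by DESeq2). Fos, Fosb and Atf3 had at most 9 counts in any unselected library, so a difference from the unselected level was not detectable at this depth unless large.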
